A study of Mus musculus with 28 samples.

Results

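The genes described here are 35 genes of glucose breakdown and of the response to low oxygen, picked by symbol from a table of 53564 mouse genes measured by RNA sequencing. They comprise 17 enzymes of glycolysis and lactate formation, 6 genes of sugar and lactate transport and of the control of glycolysis, and 12 genes of the hypoxia response. All 35 were found in the table, and all 35 passed the filter on low values that left 21935 genes for testing. Glycolysis splits glucose into pyruvate in the cytosol, and lactate dehydrogenase converts pyruvate and lactate into each other. When oxygen is scarce, hypoxia-inducible factors are no longer marked for destruction by oxygen-dependent prolyl hydroxylases, and they switch on glycolytic enzymes, glucose transporters and genes such as Vegfa, Bnip3 and Adm. Pluripotent cells of the primed, epiblast-like kind are known for a high rate of glycolysis, and mitochondrial metabolism is known to become more prominent in primordial germ cells (PGCs), from which oocytes and sperm later form.

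RNA came from C57BL6 mouse cells led in culture from embryonic stem cells towards PGCs and early meiosis, and from PGCs of the embryo. The LT stem cells were wild type with long telomeres, the ST stem cells were generation 4 (G4) knockouts of Terc, the RNA template of telomerase, with short telomeres, and the RT stem cells had Terc and telomere length rescued. Each kind was grown for 2 days as epiblast-like cells and then aggregated for 1 day under BMP4, SCF, EGF and LIF, the start of PGC induction, and whole embryoid bodies were taken (LT-1dEB, ST-1dEB and RT-1dEB). PGC-like cells from 4 days of induction were put together for 1 day with somatic cells from gonads of female E12.5 Actin-GFP mice in medium with retinoic acid and vitamin C, and cells without GFP were sorted as day-1 meiocyte-like cells (LT-1dMeioLC, ST-1dMeioLC and RT-1dMeioLC). PGCs sorted from E10.5 embryos by CD61 and SSEA1 were either sequenced fresh (E10.5PGC) or first kept in that co-culture (PGC-1dMeioLC). The embryoid bodies were not sorted, so stage, culture and sorting cannot be told apart in a comparison of 1dMeioLC with 1dEB. The sources used here do not say how Terc was restored or whether each kind of stem cell was 1 clone. Every group had 2 libraries, replicates 1 and 2, and since nothing says that these came from separate cultures or animals, p-values measure the spread between libraries, which may be technical.

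Values were deposited as TPM, in which each library's transcripts add up to 1000000, so read depth is unknown. Nuclear protein-coding genes held 28.2% ± 1.4 (SD, n = 2) of TPM in RT-1dEB, 38.8% ± 0.11 in LT-1dEB and 44.3% ± 0.23 in ST-1dEB, and group means of 54.4% to 61.2% in the other 5 groups. Levels are therefore given as scaled TPM, in which those genes alone add up to 1000000, and the outcome on the deposited TPM is set beside them where it differs. Log2 fold changes were taken on log2(scaled TPM + 1) with limma, which understates the change of low genes, and ± after a fold change is the standard error. A gene is called higher or lower where its 2-sided Benjamini-Hochberg adjusted p, over all 21935 genes, is below 0.05. As a check of the labels, no library of ST-1dEB or ST-1dMeioLC held Terc above 0, whereas LT and RT libraries held 0.699 to 5.39 TPM. PGC-1dMeioLC also listed Terc at 0 in both libraries. Germ cell markers summed to between 6224 and 6231 scaled TPM in E10.5PGC, led by Dppa3, with 12 of 12 markers at 1 or more, and the same libraries held blood and endothelial markers at 2584 to 2647, led by the globin gene Hba-a1. In RNA from many cells, fewer cells of a type and less RNA per cell cannot be told apart.

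The promoters of 6 genes are printed as examples from 2 sets of genes in the comparisons that follow. Other genes of both sets are not printed, among them Adm, Egln1 and Ldhb of the first. Those of Bnip3 (chr7:138909457-138909756, minus strand), Higd1a (chr9:121857747-121858046, minus strand), Ankrd37 (chr8:45999801-46000100, minus strand) and Pgk1 (chrX:106186850-106187149, plus strand) belong to genes higher in 1dMeioLC than in 1dEB in all 3 lines. Those of P4ha1 (chr10:59323046-59323345, plus strand) and P4ha2 (chr11:54100674-54100973, plus strand) belong to genes higher in ST-1dEB than in LT-1dEB. Each runs 5′ to 3′ from 250 bases before to 50 bases after a transcript start, as listed by RefSeq on GRCm38.p6. Capitals mark ACGTG and GCGTG, the core letters bound by hypoxia-inducible factors, on either strand, where matches can overlap and a CACGTG counts on both strands.
Bnip3: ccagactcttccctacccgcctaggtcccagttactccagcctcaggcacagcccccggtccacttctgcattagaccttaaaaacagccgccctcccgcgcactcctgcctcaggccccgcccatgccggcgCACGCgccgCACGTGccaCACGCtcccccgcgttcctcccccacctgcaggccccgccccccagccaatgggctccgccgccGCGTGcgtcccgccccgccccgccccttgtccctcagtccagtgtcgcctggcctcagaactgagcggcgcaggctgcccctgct
Higd1a: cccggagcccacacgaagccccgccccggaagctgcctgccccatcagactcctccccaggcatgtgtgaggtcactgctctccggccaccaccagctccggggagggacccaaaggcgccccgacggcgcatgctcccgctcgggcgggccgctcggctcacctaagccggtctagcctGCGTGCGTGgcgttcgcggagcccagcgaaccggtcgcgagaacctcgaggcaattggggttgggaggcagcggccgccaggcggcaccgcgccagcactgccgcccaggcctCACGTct
Ankrd37: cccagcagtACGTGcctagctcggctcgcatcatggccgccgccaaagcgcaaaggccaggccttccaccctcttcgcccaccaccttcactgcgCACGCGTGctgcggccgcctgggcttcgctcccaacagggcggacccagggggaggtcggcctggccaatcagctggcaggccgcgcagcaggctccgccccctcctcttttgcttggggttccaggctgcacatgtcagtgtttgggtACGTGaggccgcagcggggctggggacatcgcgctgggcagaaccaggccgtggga
Pgk1: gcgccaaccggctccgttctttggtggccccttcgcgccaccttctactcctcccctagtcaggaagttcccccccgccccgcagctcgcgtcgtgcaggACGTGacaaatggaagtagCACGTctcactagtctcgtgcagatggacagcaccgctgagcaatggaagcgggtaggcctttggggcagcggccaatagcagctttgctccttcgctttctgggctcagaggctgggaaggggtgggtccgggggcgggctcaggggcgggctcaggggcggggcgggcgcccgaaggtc
P4ha1: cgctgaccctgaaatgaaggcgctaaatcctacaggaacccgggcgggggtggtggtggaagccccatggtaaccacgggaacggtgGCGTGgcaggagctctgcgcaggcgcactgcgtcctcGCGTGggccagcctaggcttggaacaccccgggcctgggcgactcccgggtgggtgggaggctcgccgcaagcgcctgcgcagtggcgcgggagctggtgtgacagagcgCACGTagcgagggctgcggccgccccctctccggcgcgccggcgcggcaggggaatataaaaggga
P4ha2: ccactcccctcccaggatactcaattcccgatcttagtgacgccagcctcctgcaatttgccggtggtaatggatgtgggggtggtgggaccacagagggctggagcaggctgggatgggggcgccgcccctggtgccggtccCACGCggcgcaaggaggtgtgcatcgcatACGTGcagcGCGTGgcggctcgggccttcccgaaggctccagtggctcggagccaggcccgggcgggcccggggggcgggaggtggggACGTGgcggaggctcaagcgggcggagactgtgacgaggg
The printed promoter of Bnip3 held 5 matches, those of Ankrd37 and P4ha2 held 4, those of Higd1a and P4ha1 held 3, and that of Pgk1 held 2. Of the 35 genes 33 had a promoter in the table, and Ndrg1 and Slc2a3 had none. At least 1 match stood in 38 of the 47 promoters of these genes (80.9%), against 43.8% of all 32851 promoters of the same length. By role, 14 of 17 enzyme genes, 5 of 5 transport and control genes and 11 of 11 hypoxia response genes held a match. The list was chosen to hold known targets of these factors, so the 2 shares are a description and not a test. Overlapping promoters of 1 gene, as for Aldoa, were counted separately. The counts by role are of genes with a match in any promoter, and no such count was made for all genes. These are matches of letters and not sites of binding.

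Short and long telomeres were first compared at 1dEB, the stage at which induction towards PGCs had run for 1 day. Collagen hydroxylases, the growth factor Vegfa and the stress gene Ddit4 were several-fold higher in ST, while the lactate exporter, a neuronal glucose transporter and lactate dehydrogenase B were lower. Of the 35 genes 9 were called higher and 11 lower, against 22.0% higher and 18.8% lower of all genes tested (21935). On deposited TPM the split was 14 higher and 6 lower, with 26.7% and 11.6% of all genes, and Tpi1 alone among the called genes changed sign, from a log2 fold change of -0.17 to 0.017.

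Vegfa, the main growth factor for blood vessels (chromosome 17, 46016993 to 46032369, GENCODE M21 on GRCm38), stood at 7.40 and 7.02 scaled TPM in LT-1dEB and at 70.8 and 65.5 in ST-1dEB. The ST libraries lay 9.45-fold higher on average, far outside the LT range (log2 fold change 3.07 ± 0.11, limma adjusted p = 1.4e-08). P4ha1, a catalytic subunit of the prolyl hydroxylase that stabilises collagen, stood at 9.06 and 9.45 in LT and at 44.8 and 47.1 in ST (2.20 ± 0.09, limma adjusted p = 3.4e-08). Its relative P4ha2 went from 5.97 and 5.12 in LT to 24.3 and 24.4 in ST (1.96 ± 0.16, limma adjusted p = 5.4e-06). For both hydroxylases each ST library exceeded each LT library more than 4-fold.

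Ddit4, an inhibitor of mTOR signalling induced by low oxygen and other stresses, was at 9.47 and 5.80 scaled TPM in LT-1dEB and at 32.6 and 38.1 in ST-1dEB (log2 fold change 2.10 ± 0.20, limma adjusted p = 1.5e-05). Ankrd37, an ankyrin repeat gene known as a target of hypoxia-inducible factors, rose from 3.60 and 2.11 to 6.87 and 11.2 (1.37 ± 0.26, limma adjusted p = 0.0016). Groups did not overlap for either gene, as in 9 of the 12 hypoxia response genes, although the 2 ST values of Ankrd37 differed between themselves by more than the 2 LT values. Adm, which encodes the vessel-widening peptide adrenomedullin, went the other way, at 1.87 and 0.858 in LT and at 0 and 0.344 in ST. Its call as lower was lost without ST-1dEB replicate 1 (limma adjusted p = 0.059) or LT-1dEB replicate 1 (0.066). Of the 12 hypoxia response genes 6 were called higher (Vegfa, P4ha1, Ddit4, P4ha2, Ankrd37 and Ndrg1), 2 lower (Adm and Higd1a) and 4 were not called, with a median log2 fold change of 0.37 against 0.00 over all genes. The calls of Ndrg1 and Higd1a were also lost without 1 library (limma adjusted p of 0.13 and 0.12 without ST-1dEB replicate 1, and of 0.16 without LT-1dEB replicate 2 and 0.12 without LT-1dEB replicate 1). Bnip3, Egln1, Egln3 and Car9 had log2 fold changes between -0.47 and 0.19.

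Among transport and control genes, Slc16a3, the lactate exporter of glycolytic cells, stood at 43.4 and 47.9 scaled TPM in LT-1dEB and at 12.4 and 12.1 in ST-1dEB (log2 fold change -1.81 ± 0.15, limma adjusted p = 4.7e-06). Slc2a3, a high-affinity glucose transporter, stood at 97.9 and 97.8 in LT and at 46.7 and 48.6 in ST (-1.02 ± 0.06, limma adjusted p = 4e-07). Slc2a1, the widespread glucose transporter, was at 127 and 118 in LT and 137 and 138 in ST and was not called (0.17 ± 0.07, limma adjusted p = 0.080). Glucose entry was thus represented by an unequal pair, with Slc2a1 at 55.5% ± 1.2 of both transporters' sum in LT and 74.3% ± 0.38 in ST (SD, n = 2). Pdk1, a kinase that holds back pyruvate dehydrogenase, fell from 23.6 and 22.2 to 14.3 and 12.7 (-0.72 ± 0.10, limma adjusted p = 0.00016). Pfkfb4, which sets the level of an activator of phosphofructokinase, rose from 1.65 and 1.71 to 6.96 and 7.76 (1.64 ± 0.25, limma adjusted p = 0.00040), while Pfkfb3 was not called.

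Of the 17 enzymes 2 were called higher and 6 lower in ST-1dEB, and both risers were the less abundant isozyme of their step. Hk1, the hexokinase of most adult tissues, rose from 5.19 and 5.75 scaled TPM to 15.5 and 15.8 (log2 fold change 1.37 ± 0.14, limma adjusted p = 2.5e-05), whereas the inducible hexokinase Hk2 was at 68.8 and 68.5 in LT and 51.6 and 59.6 in ST (-0.30 ± 0.08). Eno2, the enolase of neurons, rose from 1.93 and 3.44 to 9.64 and 9.58 (1.56 ± 0.21, limma adjusted p = 0.00019), whereas the far more abundant enolase Eno1 was at 576 and 632 in LT and 496 and 499 in ST (-0.28 ± 0.06). In both steps the rarer isozyme gained share, Hk1 from 7.39% to 22.0% of both hexokinases and Eno2 from 0.438% to 1.90% of both enolases. The lowest values were those of Aldoc, the aldolase of brain, at 8.02 and 8.80 in LT and 2.29 and 1.71 in ST (-1.66 ± 0.21, limma adjusted p = 9.9e-05), and of Ldhb, the lactate dehydrogenase subunit of heart, at 287 and 297 in LT and 154 and 157 in ST (-0.90 ± 0.04, limma adjusted p = 5.7e-08). Gapdh and Tpi1 were lower by small amounts (-0.41 and -0.17), and the call of Hk2 was lost without ST-1dEB replicate 1 (limma adjusted p = 0.070), that of Tpi1 without ST-1dEB replicate 1 (0.088) or LT-1dEB replicate 2 (0.11).

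**Figure D1:**
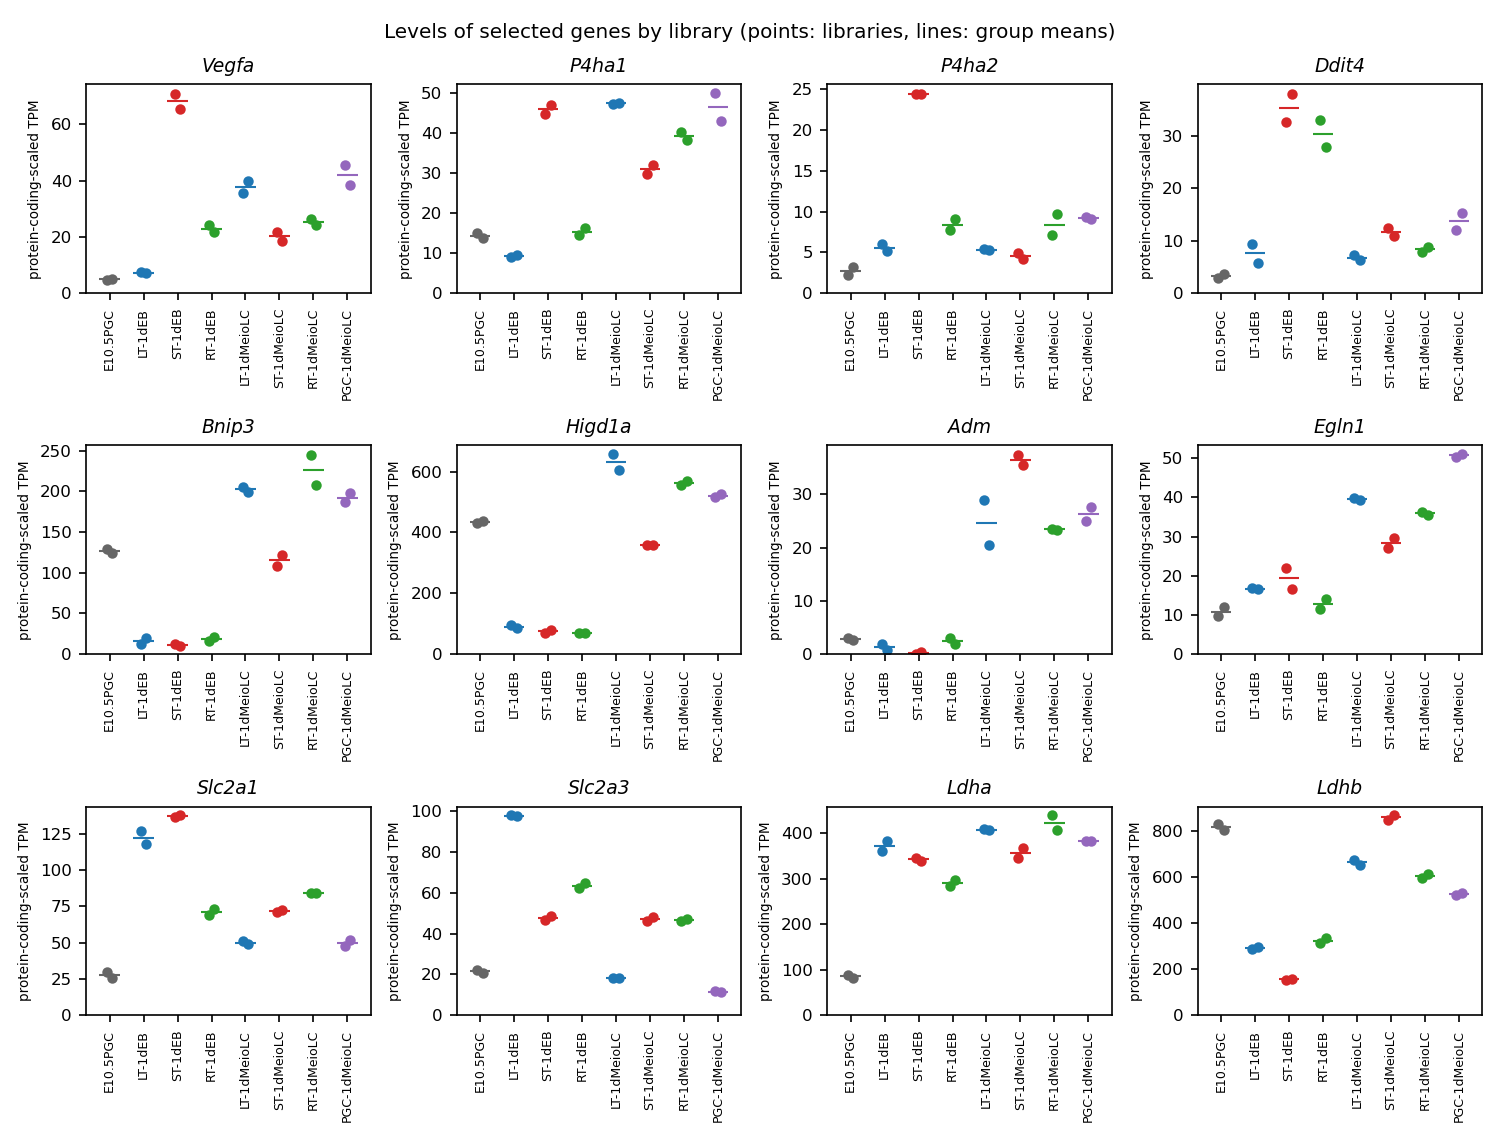
Levels of 12 of the genes in scaled TPM (vertical axes start at 0) in each of the 16 libraries, with a point per library and a line at each group mean. Vegfa, P4ha1 and P4ha2 stand highest among the 1dEB groups in ST-1dEB, whereas Bnip3, Higd1a and Adm are low in every 1dEB library and high in every 1dMeioLC library.

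Other genes that hypoxia-inducible factors are known to switch on followed a like count, with 12 of 28 called higher and 4 lower and a median log2 fold change of 0.42. Among them were Lox, a collagen cross-linking enzyme, at a mean of 70.4 scaled TPM in ST-1dEB and 6.27 in LT-1dEB (3.31), and Ak4, a mitochondrial adenylate kinase, which was lower (-2.61). Of 11 genes for the factors themselves and their regulators, Epas1 (0.96) and Cited2 (0.70) were higher, Hif3a was lower (-1.31) and 8 were not called. Of 30 other glycolysis and pyruvate genes tested 4 were higher and 10 lower, among them the testis lactate dehydrogenase Ldhc (-2.46) and the muscle enolase Eno3 (-1.38). Several of the risers act on collagen, and fibroblast and stroma markers rose with them, with 12 of 12 called higher, summed levels of 90.0 to 93.7 in LT-1dEB, 1850 to 1877 in ST-1dEB and 813 to 818 in RT-1dEB, Mgp the highest and Fap listed at 0 in LT-1dEB. Germ cell markers summed to 764 to 768 in LT-1dEB, 492 to 499 in ST-1dEB and 702 to 748 in RT-1dEB. Pou5f1 was the highest of them in each, at means of 334, 260 and 363, so these sums rest in large part on 1 gene. Of these 12 markers 3 were called higher and 7 lower in ST against LT, and 7 higher and 1 lower in RT against ST. Gonadal somatic markers summed to 61.7 to 69.2 in LT, 103 to 106 in ST and 57.1 to 65.4 in RT, with 6 of 12 higher and 1 lower in ST than in LT. Blood and endothelial markers summed to between 12.6 and 19.1 in all 1dEB libraries. The part of these markers in the changes of Vegfa, P4ha1, P4ha2 and the others was not tested.

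The rescued line was then set beside ST and LT at 1dEB, to see where its levels lay; its comparisons share the ST or the LT libraries with the one above. Against ST, 13 of the 35 genes were called higher (18.6% of all genes) and 9 lower (17.0%). On deposited TPM the split was 2 higher and 24 lower, with 5.14% and 44.6% of all genes and a median over all genes of -0.38 in place of 0.04, so directions at small sizes depend on the scale. Against LT, 14 were higher (23.5% of all genes) and 10 lower (14.4%) on scaled TPM, and 6 higher and 19 lower on deposited TPM, with 10.7% and 30.9% of all genes.

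Vegfa stood at 24.3 and 21.6 scaled TPM in RT-1dEB, below both ST libraries and above both LT libraries (log2 fold change -1.53 ± 0.11 against ST, limma adjusted p = 4e-06, and 1.54 ± 0.11 against LT, limma adjusted p = 3e-06). P4ha1 at 14.4 and 16.3 and P4ha2 at 7.77 and 9.04 also lay between the other lines (-1.52 ± 0.09 and -1.44 ± 0.16 against ST, and 0.67 ± 0.09 and 0.52 ± 0.16 against LT). Of these RT against LT calls, that of P4ha2 was lost without LT-1dEB replicate 2 or RT-1dEB replicate 2 (limma adjusted p = 0.15 each). Ddit4 at 33.1 and 27.8, Hk1 at 13.4 and 12.9 and Pfkfb4 at 5.81 and 5.46 were not called against ST on scaled TPM, and against LT they were higher by 1.89, 1.13 and 1.31 on the log2 scale. On deposited TPM all 3 were called lower in RT than in ST, Ddit4 at 8.99 and 8.11 against 14.5 and 16.8 (-0.80 ± 0.18, limma adjusted p = 0.0030), Hk1 at 3.66 and 3.77 against 6.91 and 6.97 (-0.75 ± 0.12, 0.00040) and Pfkfb4 at 1.58 and 1.59 against 3.09 and 3.43 (-0.72 ± 0.19, 0.0087). Ankrd37 was at 5.76 and 4.94 (0.75 ± 0.26 against LT), a call lost without LT-1dEB replicate 2 (limma adjusted p = 0.27) or either RT-1dEB library (0.18 and 0.096).

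Some genes stood above both other lines in RT-1dEB on scaled TPM. Eno2 was at 18.2 and 19.4 scaled TPM, the highest of the 1dEB groups (log2 fold change 0.90 ± 0.21 against ST, limma adjusted p = 0.0080, and 2.46 ± 0.21 against LT, limma adjusted p = 1.2e-05). Ndrg1, a differentiation and stress gene, was at 9.43 and 9.90 in RT, 5.67 and 4.73 in ST and 3.82 and 2.74 in LT (0.79 ± 0.16 against ST and 1.33 ± 0.16 against LT). On deposited TPM Eno2 at 4.94 and 5.65 in RT against 4.29 and 4.23 in ST (0.26 ± 0.17, limma adjusted p = 0.24) and Ndrg1 at 2.56 and 2.89 against 2.52 and 2.09 (0.17 ± 0.14, limma adjusted p = 0.33) were not called between RT and ST, though both were called against LT. Car9, a surface carbonic anhydrase, was at 3.47 and 3.58 in RT and between 0.966 and 1.53 in the other 1dEB libraries (1.14 ± 0.27 against ST, limma adjusted p = 0.0079), and its call against LT was lost without LT-1dEB replicate 2 (0.079). On deposited TPM Car9 was called against neither line (limma adjusted p = 0.076 against ST and 0.10 against LT). Its deposited values ran from 0 to 1.04 over all libraries. Car9 passed the filter only through RT-1dEB replicate 2 (1.04) and RT-1dMeioLC replicate 2 (1.03), so its higher call in RT-1dEB is not independent of the filter. Adm at 3.01 and 1.96 exceeded both ST libraries (1.57 ± 0.24, limma adjusted p = 0.00063) and was not called against LT. On deposited TPM all these values of Adm were below 1, at 0.817 and 0.571 in RT, 0 and 0.152 in ST and 0.722 and 0.333 in LT. There the RT and LT libraries overlapped.

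Ldhb was at 314 and 333 scaled TPM in RT-1dEB, above the ST libraries (log2 fold change 1.05 ± 0.04, limma adjusted p = 1.3e-07) and slightly above those of LT (0.15 ± 0.04). Against LT the sign of Ldhb was turned by deposited TPM (-0.31) and its call was lost without LT-1dEB replicate 1 or RT-1dEB replicate 2 (limma adjusted p = 0.084 and 0.081). Slc16a3 stayed low at 16.8 and 14.8 (-1.48 ± 0.15 against LT, limma adjusted p = 3.3e-05, and not called against ST). Aldoc at 3.51 and 3.69 lay between the other lines, below LT (-1.03 ± 0.21, limma adjusted p = 0.0029) and above ST (0.62 ± 0.21, limma adjusted p = 0.039), the latter lost without any 1 of the 4 libraries (0.050 to 0.20). Slc2a1 was lowest in RT-1dEB, at 68.9 and 73.2 (-0.94 ± 0.07 against ST, limma adjusted p = 4.9e-06, and -0.77 ± 0.07 against LT). Slc2a3 at 62.2 and 64.8 lay between LT and ST (-0.62 ± 0.06 against LT and 0.41 ± 0.06 against ST), and the sign of Slc2a3 against ST turned on deposited TPM (-0.23). Pfkp, the platelet phosphofructokinase, was lower than in LT (-0.46 ± 0.09) and than in ST (-0.40 ± 0.09), the latter not without ST-1dEB replicate 2 (limma adjusted p = 0.050). Egln1, the main oxygen-sensing prolyl hydroxylase of hypoxia-inducible factors, was at 11.5 and 14.1 in RT and 22.1 and 16.7 in ST (-0.56 ± 0.13), a call lost without ST-1dEB replicate 1 or RT-1dEB replicate 1 (limma adjusted p = 0.068 and 0.070).

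Short and long telomeres were compared again in sorted 1dMeioLC. Here the hypoxia response genes were mostly lower in ST, while glucose transporters and hexokinases were higher. Of the 35 genes 10 were called higher (20.1% of all genes) and 11 lower (13.8%). The split was 7 higher and 12 lower on deposited TPM, with 17.4% and 17.7% of all genes, and no called gene changed sign. The count of lower calls fell to 5 without ST-1dMeioLC replicate 1, 5 without LT-1dMeioLC replicate 1 and 7 without LT-1dMeioLC replicate 2.

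Of the 12 hypoxia response genes 7 were called lower and Ddit4 alone higher, with a median log2 fold change of -0.54 against 0.01 over all genes. Vegfa was at 35.4 and 39.9 scaled TPM in LT-1dMeioLC and at 21.7 and 18.6 in ST-1dMeioLC (-0.87 ± 0.11, limma adjusted p = 0.00025). Higd1a, a protein of the mitochondrial inner membrane that rises in low oxygen, was at 656 and 605 in LT and 357 and 358 in ST (-0.81 ± 0.07, limma adjusted p = 2.8e-05). For Vegfa and Higd1a both ST libraries lay below both LT libraries, as they did for P4ha1 at 47.4 and 47.7 in LT and 29.7 and 32.1 in ST (-0.61 ± 0.09, limma adjusted p = 0.00066). Egln3, another hydroxylase of hypoxia-inducible factors and itself one of their targets, was at 4.01 and 4.43 in LT and 0.873 and 1.36 in ST (-1.31 ± 0.24, limma adjusted p = 0.0022). Bnip3, a mitochondrial protein that promotes mitophagy and cell death, was at 206 and 199 in LT and 108 and 122 in ST (-0.81 ± 0.20, limma adjusted p = 0.0097), a call lost without ST-1dMeioLC replicate 1 (0.063) or LT-1dMeioLC replicate 1 (0.051).

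Calls of 3 further hypoxia response genes were lost when single libraries were left out. Ankrd37 was at 30.1 and 27.8 scaled TPM in LT-1dMeioLC and 14.1 and 16.2 in ST-1dMeioLC (log2 fold change -0.90 ± 0.26), and its limma adjusted p of 0.022 became 0.054 to 0.11 without any 1 of the 4 libraries. Ddit4 was at 7.20 and 6.41 in LT and 12.4 and 10.9 in ST (0.69 ± 0.20), and its limma adjusted p of 0.024 became 0.053 to 0.12 without any 1 of them. Egln1 was at 39.9 and 39.4 in LT and 27.2 and 29.5 in ST (-0.47 ± 0.13), a call lost without ST-1dMeioLC replicate 1 or either LT library (limma adjusted p of 0.079 to 0.11). In all 3 the groups did not overlap, but neither did they in any of the 12 hypoxia response genes, 4 of which were not called. No such share was computed over all genes.

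Slc2a3 was at 18.2 and 18.3 scaled TPM in LT-1dMeioLC and at 46.4 and 48.2 in ST-1dMeioLC, the largest rise among the 35 genes in this comparison (log2 fold change 1.33 ± 0.06, limma adjusted p = 6.9e-07). Slc2a1 rose less, from 51.3 and 48.7 to 71.4 and 72.4 (0.51 ± 0.07, limma adjusted p = 0.00039). Hk1 went from 3.48 and 3.14 to 6.90 and 7.22 (0.90 ± 0.14, limma adjusted p = 0.00085) and Hk2 from 19.2 and 19.7 to 35.3 and 35.2 (0.83 ± 0.08, limma adjusted p = 4e-05). These 4 genes of glucose uptake and phosphorylation, the entry to glycolysis, were each called higher in ST, as were 20.1% of all genes. In the later steps Eno1 (0.43 ± 0.06), Ldhb (0.37 ± 0.04), Pfkl (0.28 ± 0.08), Gpi1 (0.19 ± 0.05) and Aldoa (0.15 ± 0.03) were called higher, and Pgk1 (-0.30 ± 0.09) and Ldha (-0.19 ± 0.06) lower. Leaving out 1 library ended the calls of Pfkl, Gpi1, Aldoa, Pgk1 and Ldha (highest limma adjusted p of 0.13, 0.11, 0.051, 0.11 and 0.14, without LT-1dMeioLC replicate 2 for Pfkl and Gpi1, LT-1dMeioLC replicate 1 for Aldoa and Pgk1 and ST-1dMeioLC replicate 1 for Ldha). Pdk1 fell from 16.8 and 13.8 to 9.76 and 9.26 (-0.63 ± 0.10, limma adjusted p = 0.00082), and Slc16a3 was lower (-0.51 ± 0.15) except without ST-1dMeioLC replicate 1 (limma adjusted p = 0.15) or LT-1dMeioLC replicate 1 (0.14).

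Genes outside the 35 were compared between the same groups. Of the 11 genes of hypoxia-inducible factors and their regulators 5 were called higher in ST-1dMeioLC, with Epas1 (log2 fold change 1.40), Hif3a (1.20) and Arnt (0.84) the largest, and the other 6 were not called. Of the 28 other targets 5 were higher and 10 lower, with a median log2 fold change of -0.12. Edn1, which encodes the vessel-narrowing peptide endothelin, went against that median, at a mean of 12.2 scaled TPM in ST and 1.71 in LT (2.27). Of the 7 pentose phosphate genes 3 were higher and 1 lower. Marker levels of the sorted cells also differed between lines. Germ cell markers summed to between 3350 and 3406 scaled TPM in LT-1dMeioLC, 1180 to 1182 in ST-1dMeioLC and 2674 to 2814 in RT-1dMeioLC, with 6 of 12 lower and 3 higher in ST than in LT. Gonadal somatic markers summed to 536 to 543 in LT, 717 to 743 in ST and 397 to 399 in RT, with 4 of 12 higher and 1 lower in ST than in LT. Blood and endothelial markers, led by Hba-a1, summed to 2828 to 2953 in LT, 3868 to 3911 in ST and 1800 to 1832 in RT, with Alas2 and Cdh5 among those listed at 0 in ST. Of the 11 tested, 0 were called higher and 3 lower in ST than in LT. The higher ST sum goes with Hba-a1, at means of 1828 in LT and 2586 in ST. Stroma markers summed to 580 to 601 in LT, 744 to 752 in ST and 600 to 613 in RT, with 4 of 12 higher and 4 lower in ST than in LT. The part of these markers in the changes of the hypoxia response and glycolysis genes was not tested.

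In RT-1dMeioLC, which shares its comparisons' ST and LT libraries with the one above, 11 of the 35 genes were called higher than in ST (10.4% of all genes) and 4 lower (24.1%), a split of 12 and 4 on deposited TPM, with 13.1% and 20.2% of all genes. Of the 12 hypoxia response genes 7 were called higher than in ST, and 4 of these calls were lost without single libraries. The other 5 were not called. Bnip3 was at 244 and 207 scaled TPM in RT against 108 and 122 in ST (log2 fold change 0.96 ± 0.20, limma adjusted p = 0.0039). Higd1a was at 555 and 570 in RT against 357 and 358 in ST (0.65 ± 0.07, limma adjusted p = 0.00012). Both lay near the LT levels, and neither was called between RT and LT. Egln3 at 5.64 and 3.83 (1.43 ± 0.24, limma adjusted p = 0.0013) and Pdk1 at 15.9 and 15.7 (0.68 ± 0.10, limma adjusted p = 0.00055) also exceeded both ST libraries.

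Further RT against ST calls were less stable. Ankrd37 at 33.2 and 32.8 scaled TPM (1.08 ± 0.26) lost its call without ST-1dMeioLC replicate 1 (limma adjusted p = 0.056), and P4ha2 at 7.15 and 9.64 (0.74 ± 0.16) lost it without RT-1dMeioLC replicate 2 (0.054). Vegfa (0.32 ± 0.11) lost its call without ST-1dMeioLC replicate 2 (limma adjusted p = 0.26) or either RT library (0.20 and 0.082), and P4ha1 (0.33 ± 0.09) without ST-1dMeioLC replicate 1 (0.094) or RT-1dMeioLC replicate 1 (0.084). Among enzymes, the higher calls of Pgk1 (0.28 ± 0.09) and Ldha (0.25 ± 0.06) were lost without ST-1dMeioLC replicate 1 (limma adjusted p = 0.13 and 0.051) or RT-1dMeioLC replicate 1 (0.15 and 0.052), and that of Pgk1 also without ST-1dMeioLC replicate 2 (0.061). Hk1 at 2.31 and 2.96, Hk2 at 24.5 and 23.2 and Ldhb at 596 and 613 were lower in RT than in ST (log2 fold changes of -1.15 ± 0.14, -0.55 ± 0.08 and -0.51 ± 0.04). Gpi1, the glucose phosphate isomerase, was lower too (-0.19 ± 0.05), except without ST-1dMeioLC replicate 2 or RT-1dMeioLC replicate 1 (limma adjusted p = 0.069 and 0.091). The higher count of 11 fell to 6 without ST-1dMeioLC replicate 1 and to 6 without RT-1dMeioLC replicate 1. The glucose transporters stood apart, since Slc2a3 at 45.9 and 47.3 in RT was not called against ST (-0.02 ± 0.06) and Slc2a1 at 84.3 and 84.0 was called higher than in ST (0.22 ± 0.07), though not without any 1 of the 4 libraries (limma adjusted p of 0.081 to 0.11).

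Between RT-1dMeioLC and LT-1dMeioLC, 6 of the 35 genes were called higher (5.75% of all genes) and 2 lower (10.8%), a split of 7 and 1 on deposited TPM, with 6.20% and 12.4% of all genes. Slc2a3 (log2 fold change 1.31 ± 0.06, limma adjusted p = 1.5e-06) and Slc2a1 (0.74 ± 0.07, limma adjusted p = 0.00013) led, followed by P4ha2 (0.55 ± 0.16), Eno1 (0.42 ± 0.06), Hk2 (0.28 ± 0.08) and Pkm (0.20 ± 0.05). Vegfa was lower (-0.55 ± 0.11, limma adjusted p = 0.0082), as was Ldhb (-0.14 ± 0.04). Only the calls of Slc2a3, Slc2a1 and Eno1 were kept without each of the 4 libraries in turn. The highest limma adjusted p was 0.26 for P4ha2 and 0.14 for Hk2 (without RT-1dMeioLC replicates 2 and 1), 0.11 for Pkm and 0.21 for Ldhb (both without LT-1dMeioLC replicate 1), and 0.073 for Vegfa (without LT-1dMeioLC replicate 2). Without LT-1dMeioLC replicate 1 or RT-1dMeioLC replicate 2 the higher count was 3, and the lower count was 0 or 1 without any 1 library. Over all genes, leaving out 1 library brought the higher count from 1262 to between 555 and 817 and the lower count from 2360 to between 891 and 1454.

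The difference between the stages in the ST minus LT effect was tested as an interaction, and 11 of the 35 genes were called with a higher effect at 1dMeioLC (18.9% of all genes) and 11 with a lower effect (18.8%). On deposited TPM the split was 7 and 15, with 12.2% and 26.4% of all genes. For 7 genes the ST minus LT difference was called at both stages with opposite signs and the interaction was called, 3 of them higher at 1dEB and lower at 1dMeioLC (2.23% of all genes) and 4 the other way (3.81%). Vegfa went from 3.07 at 1dEB to -0.87 at 1dMeioLC (difference -3.94 ± 0.16, limma adjusted p = 9.4e-08), P4ha1 from 2.20 to -0.61 (-2.80 ± 0.13, limma adjusted p = 2.1e-07) and Ankrd37 from 1.37 to -0.90 (-2.27 ± 0.37, limma adjusted p = 0.00081). In the other direction Slc2a3 went from -1.02 to 1.33 (2.35 ± 0.08, limma adjusted p = 5.5e-08), Ldhb from -0.90 to 0.37 (1.28 ± 0.06, limma adjusted p = 2e-07), Hk2 from -0.30 to 0.83 (1.13 ± 0.11, limma adjusted p = 2.7e-05) and Eno1 from -0.28 to 0.43 (0.71 ± 0.09, limma adjusted p = 0.00013). Of these, the 1dMeioLC call of Ankrd37 was lost without any 1 of the 4 libraries and the 1dEB call of Hk2 without ST-1dEB replicate 1 (limma adjusted p = 0.070), and that of Eno1 at 1dEB with near-identical copies added (0.14). Hk1 and Ddit4 were called higher in ST at both stages, and Slc16a3, Pdk1 and Higd1a lower at both, where the 1dEB call of Higd1a and the 1dMeioLC calls of Ddit4 and Slc16a3 were among those lost without 1 library. Among markers, the ST minus LT effect was lower at 1dMeioLC than at 1dEB for 12 of 12 stroma markers. It was lower for 6 and higher for 1 of 12 gonadal somatic markers. For 12 germ cell markers it was lower for 5 and higher for 2, and for 11 blood and endothelial markers it was lower for 2. The part of these markers in the changes was not tested.

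**Figure D2:**
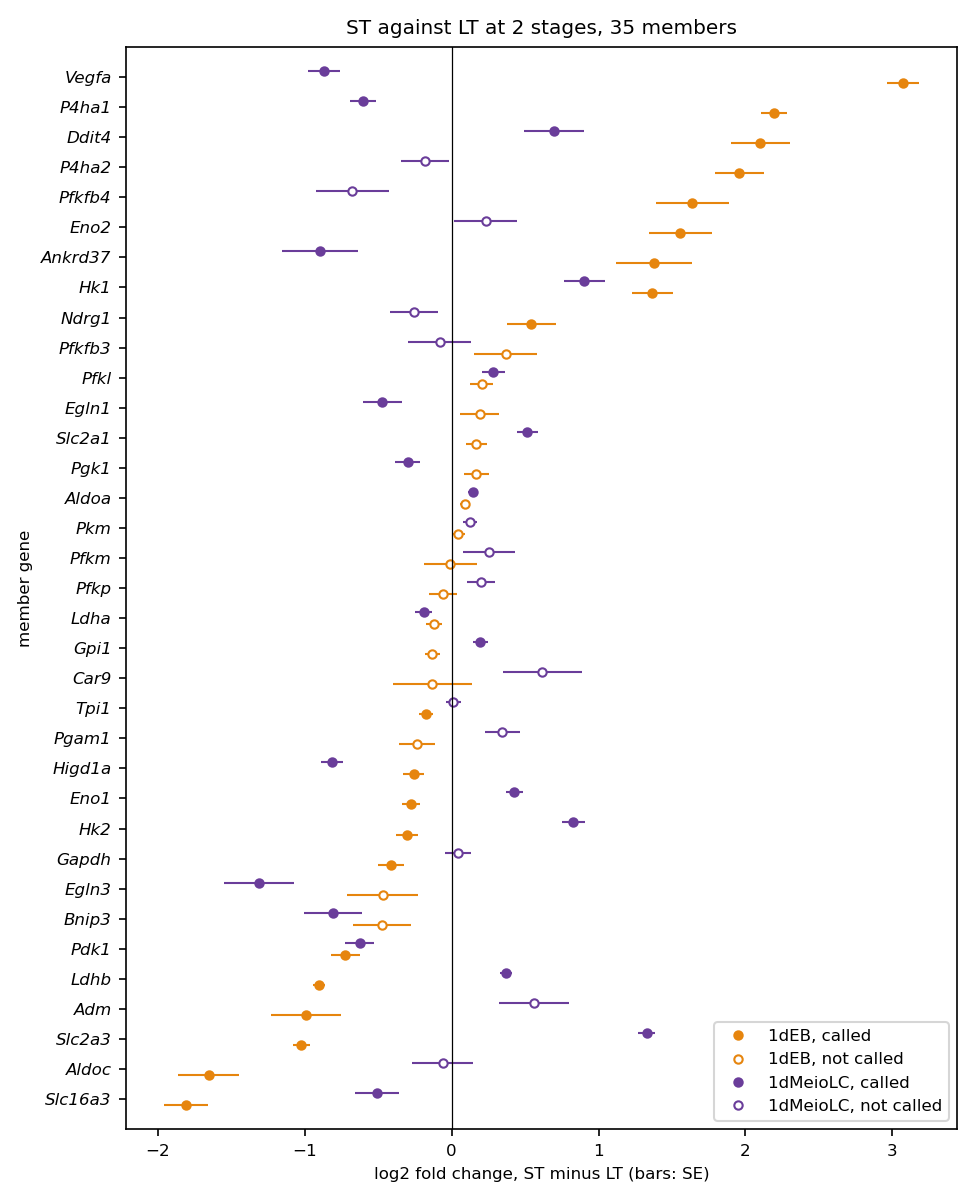
Log2 fold change of ST against LT (horizontal axis, 0 marked by a line) for the 35 genes at 1dEB (orange) and 1dMeioLC (purple), with bars of 1 standard error and filled points for called genes. Vegfa and P4ha1 stand at 3.07 and 2.20 at 1dEB and below 0 at 1dMeioLC, and Slc2a3 stands at -1.02 at 1dEB and at 1.33 at 1dMeioLC.

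Between 1dEB and 1dMeioLC the hypoxia response genes Bnip3, Higd1a and Adm rose many-fold in every line, while pyruvate kinase, hexokinases and the lactate exporter fell. The 12 hypoxia response genes did not rise as a whole in each line. On scaled TPM 7 were called higher and 1 lower in LT, 5 and 6 in ST, and 6 and 3 in RT. In LT 10 of the 35 genes were called higher (27.6% of all genes) and 14 lower (37.5%), in ST 10 higher (25.5%) and 19 lower (37.5%), and in RT 13 higher (23.5%) and 17 lower (45.1%). On deposited TPM the splits were 19 and 7 in LT (40.4% and 24.0% of all genes), 15 and 13 in ST (33.3% and 29.6%) and 23 and 6 in RT (43.7% and 22.0%). The median over all genes moved from -0.17 to 0.19 in LT, from -0.21 to 0.00 in ST and from -0.45 to 0.30 in RT. Genes with changes near these medians therefore have no direction that holds on both scales. The libraries of the 3 lines are separate, and 7 genes were called higher in 1dMeioLC in all 3 lines (14.8% of all genes were), namely Pgk1, Ldhb, Bnip3, Egln1, Adm, Ankrd37 and Higd1a.

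Bnip3 was at 12.7 and 19.6 scaled TPM in LT-1dEB and at 206 and 199 in LT-1dMeioLC (log2 fold change 3.60 ± 0.20, limma adjusted p = 6.2e-08). In ST it went from 12.8 and 9.58 to 108 and 122 (3.26 ± 0.20) and in RT from 15.7 and 21.0 to 244 and 207 (3.56 ± 0.20). Every 1dMeioLC library lay above every 1dEB library for Bnip3, and E10.5PGC at 129 and 124 lay above the 1dEB libraries too. Higd1a rose from 95.6 and 85.0 to 656 and 605 in LT (2.79 ± 0.07, limma adjusted p = 2.5e-10), by 2.24 ± 0.07 in ST and by 2.99 ± 0.07 in RT. Adm went from 1.87 and 0.858 to 28.9 and 20.5 in LT (3.46 ± 0.24, limma adjusted p = 4e-07), with log2 fold changes of 5.01 ± 0.24 in ST and 2.83 ± 0.24 in RT. The size in ST rests on 1dEB values of 0 and 0.344, where the scale is bounded by the added 1.

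Ankrd37 rose by 2.99 ± 0.26 on the log2 scale in LT (limma adjusted p = 2.3e-06) and 2.42 ± 0.26 in RT. In ST its rise of 0.72 ± 0.26 was lost without ST-1dEB replicate 1 (limma adjusted p = 0.26) or either ST-1dMeioLC library (0.062 and 0.14). Egln1 rose from 16.8 and 16.6 to 39.9 and 39.4 scaled TPM in LT (1.20 ± 0.13), by 1.42 ± 0.13 in RT and by 0.54 ± 0.13 in ST. Pgk1, the phosphoglycerate kinase that yields ATP, rose from 148 and 136 to 492 and 471 in LT (1.76 ± 0.09, limma adjusted p = 2.8e-08), with 1.29 ± 0.09 in ST and 1.87 ± 0.09 in RT. Ldhb rose in LT (1.18 ± 0.04), ST (2.46 ± 0.04) and RT (0.90 ± 0.04). All 7 genes with a rise in all lines held at least 1 ACGTG or GCGTG in a promoter, as did 9 of the 10 genes lower in all lines.

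The 10 genes called lower in all 3 lines (24.9% of all genes were) were Hk1, Hk2, Gpi1, Pfkm, Aldoa, Gapdh, Eno1, Pkm, Slc16a3 and Pdk1. On deposited TPM Gpi1 and Aldoa changed sign in all 3 lines, Pdk1 in LT and RT, and Pfkm and Eno1 in RT, so that Hk1, Hk2, Gapdh, Pkm and Slc16a3 kept their sign on both scales in each line. Sizes were smaller on deposited TPM, where the change of Hk1 in LT was -0.05 (limma adjusted p = 0.74) and that of Hk2 in RT was -0.16 (0.079). Pkm, the pyruvate kinase that forms pyruvate and ATP, fell from 694 and 732 scaled TPM to 188 and 199 in LT (log2 fold change -1.87 ± 0.05, limma adjusted p = 1.9e-10), from 736 and 735 to 209 and 214 in ST (-1.79 ± 0.05) and from 734 and 782 to 218 and 227 in RT (-1.77 ± 0.05). In each line both 1dMeioLC libraries lay far below both 1dEB libraries of Pkm. Slc16a3 fell from 43.4 and 47.9 to 6.34 and 5.34 in LT (-2.77 ± 0.15, limma adjusted p = 5.4e-08), with -1.47 ± 0.15 in ST and -1.62 ± 0.15 in RT. Hk2 fell by 1.77 ± 0.08 on the log2 scale in LT, by 0.64 ± 0.08 in ST and by 1.25 ± 0.08 in RT.

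Some genes changed with stage in unlike ways in the lines. Vegfa was higher in 1dMeioLC in LT (log2 fold change 2.23 ± 0.11, limma adjusted p = 2.9e-08), lower in ST (-1.71 ± 0.11, limma adjusted p = 2.6e-07) and not called in RT (0.14 ± 0.11). On deposited TPM Vegfa was called higher in RT too, at 6.59 and 6.30 in 1dEB and 15.9 and 14.8 in 1dMeioLC (1.14 ± 0.10, limma adjusted p = 2.7e-06). P4ha1 was higher in LT (2.24 ± 0.09) and RT (1.30 ± 0.09) and lower in ST (-0.56 ± 0.09), where it was not called on deposited TPM (-0.20 ± 0.09, limma adjusted p = 0.080). Slc2a3 fell in LT (-2.36 ± 0.06, limma adjusted p = 2.3e-10) and was not called in ST (-0.01 ± 0.06), and its change in RT was -0.44 ± 0.06 on scaled and 0.64 on deposited TPM. P4ha2 (-2.18 ± 0.16), Pfkfb4 (-1.94 ± 0.25) and Ddit4 (-1.52 ± 0.20) fell in ST. In RT the lowest value was that of Eno2, at 18.2 and 19.4 scaled TPM in 1dEB and 1.91 and 2.37 in 1dMeioLC (-2.66 ± 0.21, limma adjusted p = 1.1e-06), followed by Hk1 (-1.97 ± 0.14) and Ddit4 (-1.75 ± 0.20). Aldoc rose in ST (1.86 ± 0.21).

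Summed over the 12 hypoxia response genes, scaled TPM was 167 ± 9.8 in LT-1dEB, 299 ± 7.2 in ST-1dEB and 205 ± 0.046 in RT-1dEB (SD, n = 2). The same sum was 1032 ± 47 in LT-1dMeioLC, 626 ± 11 in ST-1dMeioLC, 973 ± 19 in RT-1dMeioLC, 949 ± 20 in PGC-1dMeioLC and 631 ± 1.8 in E10.5PGC. On deposited TPM the sum was 64.8 ± 3.6, 132 ± 2.5 and 57.8 ± 2.8 in LT, ST and RT at 1dEB, and 627 ± 27, 355 ± 5.5 and 592 ± 10.0 at 1dMeioLC. ST was thus the highest of the 3 lines at 1dEB and the lowest at 1dMeioLC on both scales, while LT and RT changed places at 1dEB with the scale. Higd1a and Bnip3 made up most of the sum at 1dMeioLC. The 17 enzymes ranged from 2721 ± 53 in E10.5PGC to 3619 ± 128 in LT-1dEB on scaled TPM, and from 1008 ± 98 in RT-1dEB to 1903 ± 25 in RT-1dMeioLC on deposited TPM. The 6 transport and control genes ranged from 72.0 ± 2.9 in E10.5PGC to 292 ± 4.4 in LT-1dEB on scaled TPM.

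**Figure D3:**
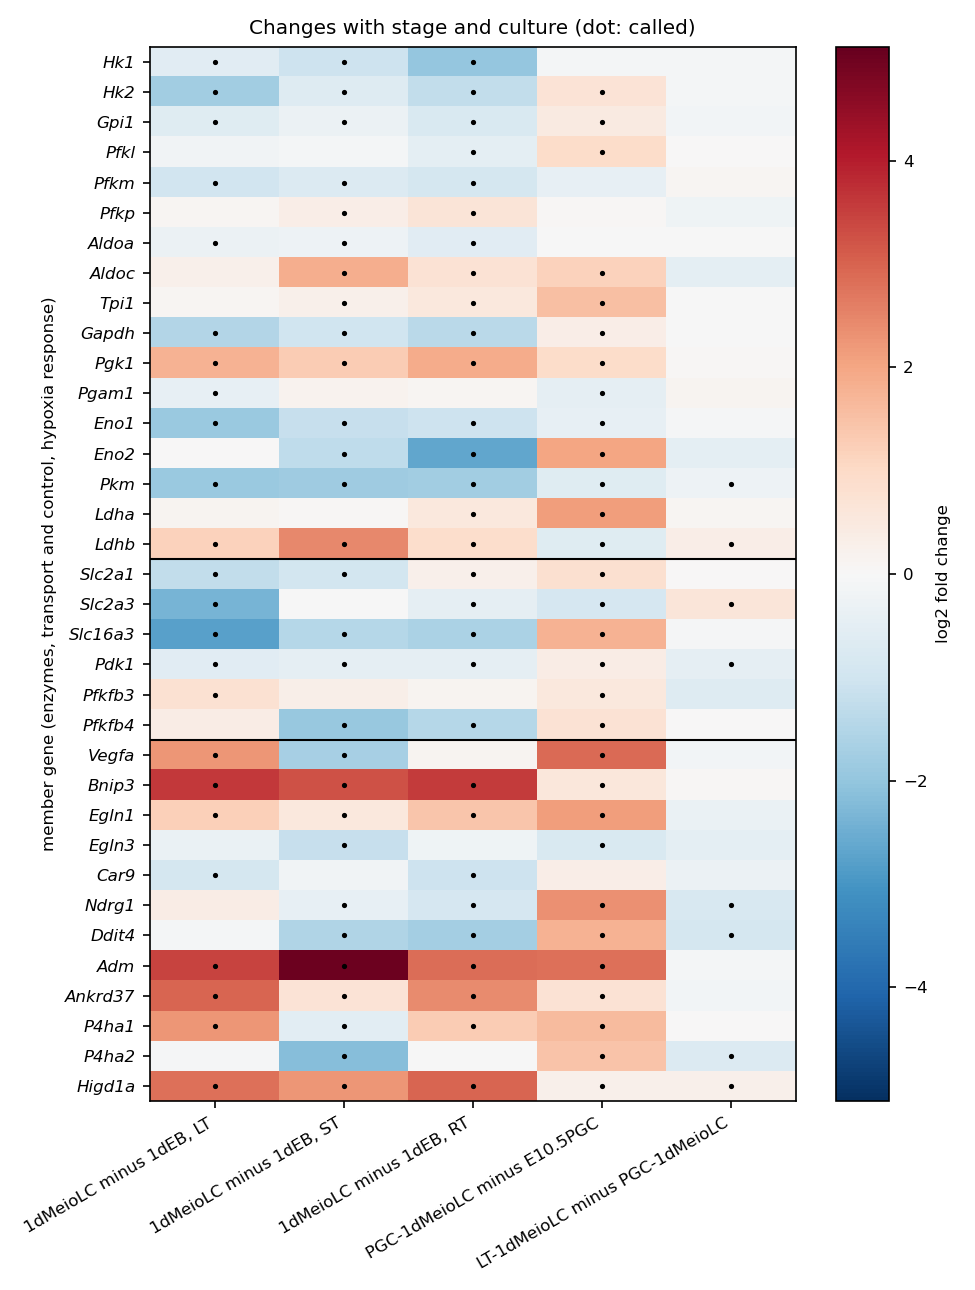
Log2 fold changes (colour scale, red higher and blue lower) of the 35 genes, ordered by role with lines between roles, in 5 comparisons, with a dot where a gene was called. The columns of the 3 lines share red cells for Bnip3, Adm and Higd1a and blue cells for Pkm and Slc16a3, and the column of LT-1dMeioLC against PGC-1dMeioLC has few dots.

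Beside these genes, Mpc1 and Mpc2, which together form the carrier that brings pyruvate into mitochondria, rose with stage in every line. Mpc1 went from a mean of 4.57 to 164 scaled TPM in LT (log2 fold change 4.94), from 15.6 to 98.4 in ST (2.58) and from 10.7 to 121 in RT (3.39). Mpc2 went from 5.34 to 68.9 in LT (3.46), with 2.91 in ST and 3.06 in RT. Of the 30 other glycolysis and pyruvate genes tested, 11 were higher and 8 lower in LT, 11 and 7 in ST, and 10 and 13 in RT. Of the 7 pentose phosphate genes 6 were lower in each line, led by the transketolase Tkt (-2.73 in LT, -2.19 in ST and -2.80 in RT) and Pgd (-1.74, -1.44 and -1.89). Of the 11 genes of hypoxia-inducible factors and their regulators 2 were higher and 7 lower in LT, 4 and 4 in ST, and 2 and 7 in RT, with Vhl, which marks the factors for destruction, higher in each line (1.16, 0.92 and 0.60) and Egln2 lower (-1.83, -1.81 and -2.10). Gonadal somatic markers rose along with stage, with 11, 11 and 10 of 12 called higher in LT, ST and RT, and blood and endothelial markers with 10, 8 and 8 of 11. Of 12 germ cell markers 9 were higher and 3 lower in LT, 7 and 2 in ST, and 7 and 3 in RT. Of 12 stroma markers 10 were higher and 2 lower in LT, 3 and 7 in ST, and 7 and 4 in RT. The part of any of these markers in the changes was not tested.

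PGCs of the embryo were compared before and after co-culture. The fresh PGCs were sorted by CD61 and SSEA1, and the cultured cells came out of a mix with gonadal somatic cells. Culture and the way of recovering cells therefore cannot be told apart here. Of the 35 genes 24 were called higher in PGC-1dMeioLC than in E10.5PGC (38.9% of all genes) and 6 lower (15.0%), and the split on deposited TPM was 18 and 8, with 34.7% and 18.9% of all genes. With quantile normalization it was 20 and 9, with 25.0% and 25.5% of all genes. Vegfa went from 4.78 and 4.94 scaled TPM to 45.7 and 38.4 (log2 fold change 2.87 ± 0.11, limma adjusted p = 9.3e-09), and Adm from 3.10 and 2.70 to 25.1 and 27.6 (2.81 ± 0.24, limma adjusted p = 3.2e-06). Ndrg1 went from 0.859 and 0.967 to 8.26 and 9.08 (2.34 ± 0.16, limma adjusted p = 7.6e-07) and Egln1 from 9.76 and 12.0 to 50.3 and 51.1 (2.13 ± 0.13, limma adjusted p = 3.3e-07). In all 4 the cultured libraries lay well above the fresh ones. Ldha, the lactate dehydrogenase subunit of muscle, rose from 88.7 and 82.6 to 383 and 384 (2.15 ± 0.06, limma adjusted p = 5.4e-10).

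Of the 12 hypoxia response genes 10 were higher and Egln3 was lower after culture, of the 6 transport and control genes 5 were higher and Slc2a3 was lower, and of the 17 enzymes 9 were higher and 4 lower. Slc16a3 rose from 1.11 and 1.07 scaled TPM to 6.12 and 6.18 (log2 fold change 1.77 ± 0.15), Eno2 from 0.185 and 0.428 to 4.67 and 3.76 (2.00 ± 0.21), Tpi1 from 75.4 and 75.8 to 213 and 223 (1.51 ± 0.05) and Ddit4 from 2.86 and 3.64 to 12.0 and 15.4 (1.79 ± 0.20). Slc2a3 fell from 22.3 and 20.9 to 12.0 and 11.1 (-0.85 ± 0.06, limma adjusted p = 7.8e-07), Ldhb from 830 and 802 to 522 and 529 (-0.63 ± 0.04, limma adjusted p = 3.6e-07) and Pkm from 359 and 348 to 235 and 228 (-0.61 ± 0.05, limma adjusted p = 1.3e-06). Egln3 (-0.77 ± 0.24) and Pgam1 (-0.47 ± 0.12) were lower as well, with calls lost without PGC-1dMeioLC replicate 2 for Egln3 (limma adjusted p = 0.14) and without E10.5PGC replicate 1 for either (0.077 and 0.055). Bnip3 (0.60), Ankrd37 (0.73), Higd1a (0.26), Pfkfb4 (0.74), Pfkfb3 (0.55), Pdk1 (0.37) and Gapdh (0.32) were called higher in the full fit, and each of these 7 lost its call without at least 1 library. The highest limma adjusted p was 0.10 for Bnip3, 0.28 for Ankrd37, 0.22 for Pfkfb3 and 0.099 for Gapdh (all without PGC-1dMeioLC replicate 2), 0.053 for Higd1a and 0.18 for Pfkfb4 (both without E10.5PGC replicate 1) and 0.057 for Pdk1 (without PGC-1dMeioLC replicate 1). The signs of Pdk1 and Pfkfb3 turned with quantile normalization (-0.013 and -0.13).

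Other targets of hypoxia-inducible factors had 24 of 28 called higher and 2 lower after culture, with a median log2 fold change of 1.05 against 0.28 over all genes. Lox (2.73) and Loxl2 (2.67), both collagen and elastin cross-linkers, led, and Cxcr4, the receptor that guides PGC migration, was lower, at a mean of 82.0 scaled TPM in E10.5PGC and 14.8 in PGC-1dMeioLC (-2.39). Of the factors and regulators 8 of 11 were higher and Egln2 was lower, with Cited2 (2.34), Vhl (2.11) and Arnt2 (2.09) the largest. Among other glycolysis and pyruvate genes Pgm2 (2.73) and Pck2 (2.04) were higher and Tigar, a phosphatase that opposes glycolysis, was lower (-2.48). Stroma markers summed to 13.3 to 15.5 scaled TPM in E10.5PGC, with Mgp listed at 0, and to 786 to 817 in PGC-1dMeioLC, with 10 of 12 called higher. Gonadal somatic markers summed to 50.5 to 54.9 in E10.5PGC and 646 to 657 in PGC-1dMeioLC, with 12 of 12 called higher. Germ cell markers summed to 3622 to 3684 in PGC-1dMeioLC, with 7 of 12 lower and 4 higher than in E10.5PGC. Blood and endothelial markers summed to 1434 to 1503 in PGC-1dMeioLC, below the E10.5PGC sums given above, with 2 of 11 called higher and 5 lower. The part of these markers in the changes was not tested.

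After co-culture, LT cells derived from stem cells were set beside cells derived from embryonic PGCs. Of the 35 genes 3 were called higher in LT-1dMeioLC (8.32% of all genes) and 5 lower (13.8%), shares near those of all genes, and the split on deposited TPM was 4 and 4, with 13.4% and 8.25% of all genes. Slc2a3 was at 18.2 and 18.3 scaled TPM in LT-1dMeioLC and 12.0 and 11.1 in PGC-1dMeioLC (log2 fold change 0.62 ± 0.06, limma adjusted p = 0.00010), and Ldhb at 675 and 652 against 522 and 529 (0.34 ± 0.04, limma adjusted p = 0.00035). Ndrg1 was lower at 4.60 and 4.30 against 8.26 and 9.08 (-0.83 ± 0.16, limma adjusted p = 0.0062), and Pkm was lower by a small amount (-0.26 ± 0.05, limma adjusted p = 0.0037). Calls of Ddit4 (-0.91 ± 0.20), P4ha2 (-0.68 ± 0.16), Pdk1 (-0.47 ± 0.10) and Higd1a (0.28 ± 0.07) were lost without 1 library, with highest limma adjusted p of 0.079 for Ddit4 (without PGC-1dMeioLC replicate 2), 0.078 for P4ha2 and 0.060 for Pdk1 (both without LT-1dMeioLC replicate 2) and 0.13 for Higd1a (without LT-1dMeioLC replicate 1). The lower count of 5 fell to 3 without PGC-1dMeioLC replicate 2 and to 2 without LT-1dMeioLC replicate 2.

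Isozyme shares, given as a description, differed most for lactate dehydrogenase, a tetramer of Ldha and Ldhb subunits. Ldha made up 9.50% ± 0.23 of the Ldha and Ldhb sum in E10.5PGC (SD, n = 2), 56.1% ± 0.40 in LT-1dEB, 68.8% ± 0.63 in ST-1dEB and 47.3% ± 0.14 in RT-1dEB. At 1dMeioLC it made up 38.0% ± 0.50 in LT, 29.3% ± 0.54 in ST and 41.2% ± 1.9 in RT, and 42.2% ± 0.18 in PGC-1dMeioLC. ST thus had the highest Ldha share of the 3 lines at 1dEB and the lowest at 1dMeioLC, and no 2 libraries of ST and another line overlapped at either stage. These shares leave out Gm5514, a near-identical copy of Ldhb. It stood at means of 297, 395 and 233 scaled TPM in LT, ST and RT at 1dMeioLC, and 6.38, 2.35 and 6.05 at 1dEB. Counted as Ldhb, it would lower the Ldha shares more at 1dMeioLC than at 1dEB. Of the phosphofructokinases, Pfkm made up 41.3% ± 0.58 in LT-1dEB and 26.4% ± 0.14 in LT-1dMeioLC, and the 2 collagen hydroxylases shifted from P4ha2 at 37.4% ± 3.3 of their sum in LT-1dEB to 10.1% ± 0.087 in LT-1dMeioLC. Egln3 held 51.6% ± 4.1 of the Egln1 and Egln3 sum in E10.5PGC and 3.76% ± 0.91 in ST-1dMeioLC.

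**Figure D4:**
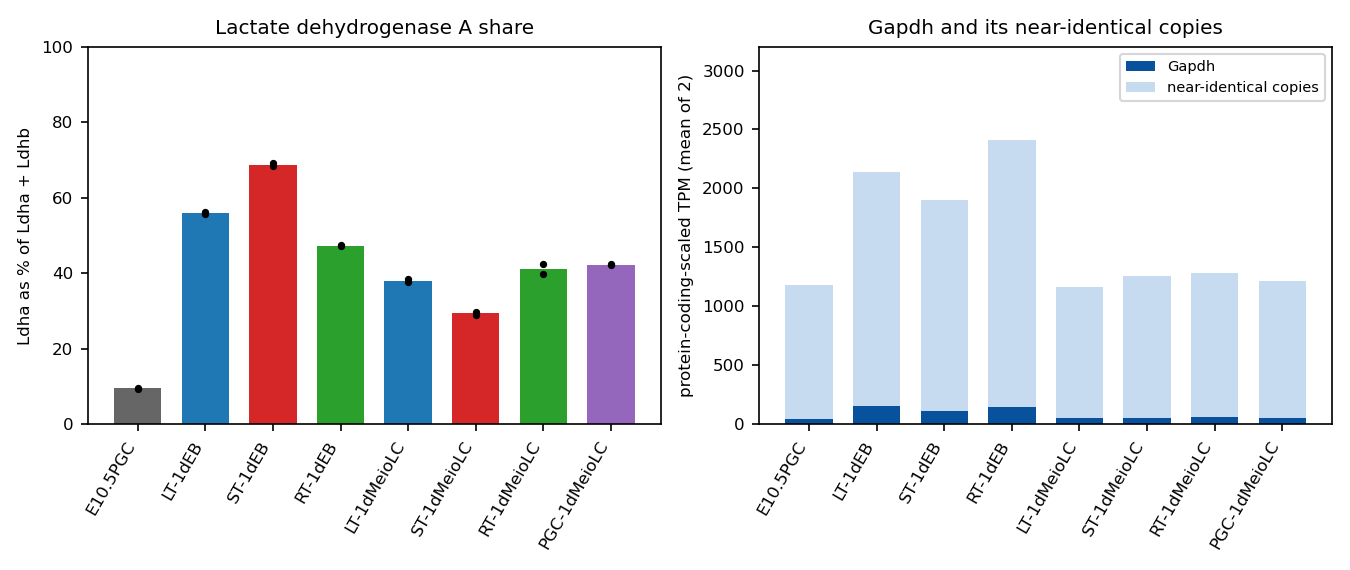
Left, Ldha as a percentage of the Ldha and Ldhb sum (vertical axis, bars are means of 2 libraries and points the libraries), lowest in E10.5PGC at 9.50% and highest in ST-1dEB at 68.8%. Right, mean scaled TPM of Gapdh (dark) and of its near-identical copies (light), which hold at least 92.9% of the summed level in every library.

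Several enzymes have near-identical copies in the mouse genome, and reads could have been split among them. With copies defined as transcripts at least 95% identical over at least 300 bases outside the gene's own locus, 10 of the 35 genes had copies among the measured genes, 111 in all. Gapdh had 92, and these held 92.9% to 96.5% of the summed level of Gapdh and copies, so the value listed for Gapdh is a small part of what maps to its sequence and its changes are uncertain. Gapdh itself ranged from 41.4 scaled TPM in E10.5PGC to 152 in LT-1dEB, and its copies together from 1098 in LT-1dMeioLC to 2300 in RT-1dEB. The 4 copies of Eno1, mainly Eno1b, held 11.5% to 60.2%, and with them added Eno1 was no longer called between ST-1dEB and LT-1dEB (log2 fold change -0.12, limma adjusted p = 0.14). The rise of Gapdh after culture of PGCs was also lost with copies added (0.04, limma adjusted p = 0.48). The copy of Ldhb, Gm5514, held 1.14% to 32.9%, and for Bnip3, Pgk1, Tpi1, Gpi1, Pgam1, Pkm and Ldha the copies held at most 14.3%.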

How the data were processed

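RNA was extracted with a column kit and libraries were made with NEBNext Ultra, per the labels' protocols. The authors deposited a table of TPM values by gene symbol, and, per the submitters' processing notes, the tools included RSEM, HISAT2, Bowtie2, DESeq2 and R 3.4.2, with no roles given, and the build was mm10. All columns sum to 1000000, so depth and counting error are unknown. Of 28 value columns 16 matched 1 sample by name. The 12 columns with repeated names were not used, so 12 of 28 samples, in 6 groups, were not analysed here.

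TPM was rescaled so that the nuclear protein-coding symbols of GENCODE M21 (21806) sum to 1000000 in each library. The filter required a deposited TPM of 1 or more in 2 or more of the 16 libraries (21935 genes). All 16 libraries entered 1 fit of group means on log2(value + 1) with limma 3.58.1 (R 4.3.3, intensity trend, 8 residual degrees of freedom, no replicate block), and p-values were adjusted by Benjamini-Hochberg within a comparison. The fit was tested on simulated data. Near-identical copies were found with blastn 2.17.0.

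The members and gene lists were chosen with earlier results of these data known. Genes named in each comparison were up to 5 called members at each end, and up to 3 genes with the largest change in each other list, with the rest of the members by role. Other scalings, filters, pseudocounts, designs and left-out libraries were tried as alternatives. Same-numbered replicates did not deviate together over 28 pairs of groups (correlations from -0.034 to 0.043), so numbers were not taken as pairs. Some items that fall under these rules are not reported here.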

Additional observations from a re-analysis of the deposited data

Results flagged for a closer look

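The difference between ST and LT was not the same at 1dEB and 1dMeioLC for 22 of the 35 genes, 11 with a higher and 11 with a lower effect at 1dMeioLC (18.9% and 18.8% of all genes), by the limma test of the difference between the differences (Benjamini-Hochberg adjusted over 21935 genes). Each value here is the ST minus LT log2 change at 1dMeioLC minus that at 1dEB. Among hypoxia response genes the effect was lower at 1dMeioLC for Vegfa (-3.94), P4ha1 (-2.80), Ankrd37 (-2.27), P4ha2 (-2.14), Ddit4 (-1.41), Ndrg1 (-0.80), Egln1 (-0.66) and Higd1a (-0.56), and higher for Adm (1.55). Among transport and control genes it was higher for Slc2a3 (2.35), Slc16a3 (1.30) and Slc2a1 (0.35) and lower for Pfkfb4 (-2.32). Among enzymes it was higher for Aldoc (1.59), Ldhb (1.28), Hk2 (1.13), Eno1 (0.71), Pgam1 (0.58), Gapdh (0.45) and Gpi1 (0.33), and lower for Eno2 (-1.33) and Pgk1 (-0.47). The calls of Gapdh, Pgam1, Slc2a1, Egln1 and Ndrg1 were lost without 1 library, with highest limma adjusted p of 0.061 and 0.067 (without LT-1dMeioLC replicate 1 for Gapdh and replicate 2 for Slc2a1), 0.079 (without ST-1dMeioLC replicate 2 for Pgam1), 0.061 (without ST-1dEB replicate 1 for Egln1) and 0.070 (without LT-1dEB replicate 2 for Ndrg1).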

How the results depend on the processing

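With 2 libraries a group and no depth, small changes are limited by the spread of single pairs and by the choice of scale. Over 253 calls of the 35 genes, the alternatives other than leaving out libraries kept 2060 of 2250 values on their side of the threshold, left 163 uncalled in the same direction and reversed 27. Leaving out 1 library at a time kept 943 of 1100, left 157 uncalled and reversed none of them. On deposited TPM the counts of higher and lower genes became 14 and 6 (ST against LT, 1dEB), 2 and 24 (RT against ST, 1dEB), 6 and 19 (RT against LT, 1dEB), 19 and 7 (stage, LT), 23 and 6 (stage, RT), 7 higher for the difference of ST effects, and 1 lower for RT against LT at 1dMeioLC. The shares of all genes on that scale are given with each comparison above. Quantile normalization gave 11 lower for stage in RT (32.0% of all genes). No filter and no trend each gave 1 lower for RT against LT at 1dMeioLC (5.22% and 9.98% of all genes). Fitting only the compared groups gave 6 lower (ST against LT, 1dEB), 8 higher (RT against ST, 1dEB), 5 higher (RT against ST, 1dMeioLC), 3 higher and 0 lower (RT against LT, 1dMeioLC) and 1 lower (LT-1dMeioLC against PGC-1dMeioLC), with fewer residual degrees of freedom. In that fit the shares of all genes fell as well, in the same order to 10.8%, 9.56%, 4.81%, 1.66%, 2.12% and 5.01%. In the main fit they were 18.8%, 18.6%, 10.4%, 5.75%, 10.8% and 13.8%.

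Log2 fold changes that reversed on deposited TPM were, for ST against LT at 1dEB, Tpi1 0.017, and for RT against ST at 1dEB, Gpi1 -0.33, Pfkl -0.32, Aldoa -0.43, Gapdh -0.26 and Slc2a3 -0.23. For RT against LT at 1dEB they were Gpi1 -0.27, Aldoa -0.14 and Ldhb -0.31. For stage they were Gpi1 0.025, Aldoa 0.34, Pgam1 0.22 and Pdk1 0.052 in LT, Gpi1 0.062 and Aldoa 0.11 in ST, and Gpi1 0.31, Pfkl 0.55, Pfkm 0.15, Aldoa 0.55, Eno1 0.067, Slc2a3 0.64, Pdk1 0.55 and Ndrg1 0.086 in RT. Quantile normalization reversed Pfkl 0.021 and Pdk1 0.068 (stage, RT) and Pdk1 -0.013 and Pfkfb3 -0.13 (PGC culture). The cause was not tested beyond the change of scale.

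Leaving out 1 library gave these ranges of higher and then lower genes. ST against LT gave 8 to 10 and 8 to 12 at 1dEB and 7 to 9 and 5 to 10 at 1dMeioLC. RT against ST gave 10 to 12 and 7 to 10 at 1dEB and 6 to 8 and 3 to 5 at 1dMeioLC. RT against LT gave 11 to 13 and 9 to 11 at 1dEB and 3 to 6 and 0 to 1 at 1dMeioLC. Stage gave 9 to 11 and 12 to 14 in LT, 9 to 10 and 18 to 19 in ST, and 12 to 14 and 17 in RT. PGC culture gave 18 to 20 and 4 to 7, LT-1dMeioLC against PGC-1dMeioLC 2 to 3 and 2 to 4, and the difference of ST effects 9 to 11 and 9 to 11. Over all genes tested, both counts fell in every comparison whichever library was left out. For ST against LT at 1dEB they went from 4816 higher to between 4198 and 4293, and from 4113 lower to between 3235 and 3634.

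With replicate number as a block, 3 calls were lost, Ankrd37 in RT against LT at 1dEB (limma adjusted p = 0.056), P4ha2 in RT against LT at 1dMeioLC (0.053) and Pfkfb3 in PGC culture (0.053), and 3 were gained, Aldoa in ST against LT at 1dEB (0.049), Pfkfb4 in ST against LT at 1dMeioLC (0.040) and Pfkm in PGC culture (0.047). Adding near-identical copies, an alternative chosen after seeing the data, ended 2 calls (Eno1, ST against LT at 1dEB, and Gapdh, PGC culture). Calls were gained as well, with lower genes going from 9 to 10 in RT against ST at 1dEB. Higher genes went from 14 to 15 (RT against LT, 1dEB), 10 to 11 (ST against LT, 1dMeioLC) and 6 to 7 (RT against LT, 1dMeioLC). The lower count for ST against LT at 1dEB stayed at 11.

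Over all genes tested, counts moved by more than 1.5 times on deposited TPM for ST against LT at 1dEB (4113 to 2551 lower), RT against ST at 1dEB (4086 to 1127 higher, 3738 to 9778 lower), RT against LT at 1dEB (5155 to 2346 higher, 3165 to 6786 lower), stage in LT (8215 to 5269 lower), stage in RT (5147 to 9579 higher, 9887 to 4828 lower), LT-1dMeioLC against PGC-1dMeioLC (1825 to 2946 higher, 3032 to 1809 lower) and the difference of ST effects (4150 to 2682 higher). Leaving out LT-1dMeioLC replicate 2 gave 2898 higher and 1958 lower for ST against LT at 1dMeioLC, and leaving out any 1 library gave 555 to 817 higher and 891 to 1454 lower for RT against LT at 1dMeioLC, and 951 to 1208 and 1254 to 1961 for LT-1dMeioLC against PGC-1dMeioLC. Quantile normalization moved RT against ST at 1dMeioLC (5289 to 3328 lower) and PGC culture (8527 to 5479 higher, 3300 to 5588 lower). Without a filter 6840 and 8104 genes were higher for RT against ST and against LT at 1dEB, and with at least 5 TPM in 2 libraries 2587 and 3267, and 6246 lower for stage in RT. Fitting only the compared groups left 2366 lower (ST against LT, 1dEB), 2097 higher and 2150 lower (RT against ST, 1dEB), 2938 and 1730 (RT against LT, 1dEB), 2260 in place of 4413 and 1737 in place of 3017 (ST against LT, 1dMeioLC), 1056 in place of 2286 and 1845 in place of 5289 (RT against ST, 1dMeioLC), 364 in place of 1262 and 464 in place of 2360 (RT against LT, 1dMeioLC) and 866 and 1100 (LT-1dMeioLC against PGC-1dMeioLC).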
